A study of Mus musculus with 17 samples.

Results

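Gene expression in mouse hearts 6 weeks after transverse aortic constriction (TAC) was compared with that in Control hearts, by RNA-seq of total RNA. TAC is an operation that narrows the aorta, so that the left ventricle pumps against a raised pressure. The comparison used 6 of the study's 17 libraries, 3 labelled TAC 6 week with vehicle (TAC 6 week vehicle 1 to 3) and 3 labelled Control (Control 1 to 3), and 41052 of the 41126 genes in the files. The libraries were taken by their group labels, but this comparison and the gene lists below were chosen with earlier results of these data known. Dropped were 74 genes that the authors' tool had marked as too highly covered to count in 1 or more of the 6 libraries. Of these, 20 were marked in all 6 and 54 only in TAC 6 week vehicle, 44 of the latter on chromosome 7. Each Control library had 20 marked genes and each TAC 6 week vehicle library 74. Whether counting differed between the groups in other ways was not tested. All mice were C57BL/6, ate normal chow, lived in equal hours of light and dark, and had their hearts taken about 10 h after lights on (zeitgeber hour 10). The TAC group received vehicle daily, the solvent arm for SR9009, a REV-ERB agonist given to the study's other TAC groups. Whether the Control mice had a sham operation or received vehicle is not stated in the labels, nor are age and sex. For Control they give no week, so an effect of TAC cannot be told apart from one of age, dosing or sequencing batch. The labels do not state that replicates came from separate animals. The p-values thus measure the spread between libraries within groups, pooled over all 17, which may be technical.

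A ventricle that works against raised pressure thickens its wall by enlargement of its muscle cells, which is called hypertrophy. Heart muscle under such load is known to express again genes of its fetal state, to secrete natriuretic peptides, to gain connective tissue and to shift its fuel from fatty acids toward glucose. Over longer periods the adult set of ion channels and calcium pumps is known to decline as the heart begins to fail.

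The libraries held 9.678 to 10.14 M fragments (M, mega) in Control and 13.35 to 15.81 M in TAC 6 week vehicle, so every TAC library was sequenced more deeply than every Control library. One TAC library stood apart from its partners. TAC 6 week vehicle 1 differed from TAC 6 week vehicle 2 and 3 by a median absolute log2 difference of 0.158 and 0.139 over 11402 genes, while vehicle 2 and 3 differed by 0.097. It lay nearer to the libraries labelled TAC 6 week SR9009, from which it differed by 0.104, 0.128 and 0.099, and also differed by only 0.125 and 0.12 from TAC 1 week SR9009 3 and 4. The Control libraries differed from each other by 0.09 to 0.095. Whether it was harvested, dosed or labelled differently was not tested, and counts are therefore also given without it. Control 2 differed from its partners in Y-linked genes: Ddx3y was at 72.2 CPM against 211 and 213 CPM in Control 1 and 3. Xist, the RNA of the inactive X chromosome, was at 4.29 CPM, between the 7.37 and 0.724 CPM of its partners. CPM are fragments per mega-fragment of the library total, after scaling between libraries. The other Y-linked genes Uty (36.3 CPM against 86.2 and 82.2 CPM), Eif2s3y (37.2 against 94.9 and 87.5 CPM) and Kdm5d (47.5 against 81 and 76.6 CPM) were also lowest in Control 2.

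Of 15933 genes tested, 1678 were higher and 1556 lower in TAC 6 week vehicle than in Control at an adjusted p under 0.05 (edgeR's quasi-likelihood test with Benjamini-Hochberg adjustment, two-sided). That is 20.3% of the genes tested, 10.5% higher and 9.77% lower, the background against which each count below is read unless a library is left out. This share varied with expression. Among the 3407 protein-coding genes with the highest expression 778 rose and 366 fell, and among the 3412 with the lowest 142 rose and 263 fell. Most calls were small: 1712 changed by less than 0.5 on the log2 scale, 238 rose and 306 fell by more than 1. The libraries of both groups did not overlap for 39% of the genes tested, with all TAC libraries above all Control libraries for 19.6% and below them for 19.4%. The median log2 fold change over all genes was -0.01. Without TAC 6 week vehicle 1 the calls were 2090 higher and 1929 lower of 16104 genes tested, the background for counts below without it. Among these calls were 2894 of the 3234 genes called with it, in the same direction. Leaving out any one of the other 5 libraries gave 1863 to 2314 calls, and 1400 genes kept their call in all 6 leave-outs. Depth differed between the groups, and with library total as a covariate 143 genes were higher and 85 lower, with 3230 of the 3234 calls keeping their sign. Changes are given below as log2 fold changes, TAC 6 week vehicle minus Control, ± their standard error (SE).

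**Figure D1:**
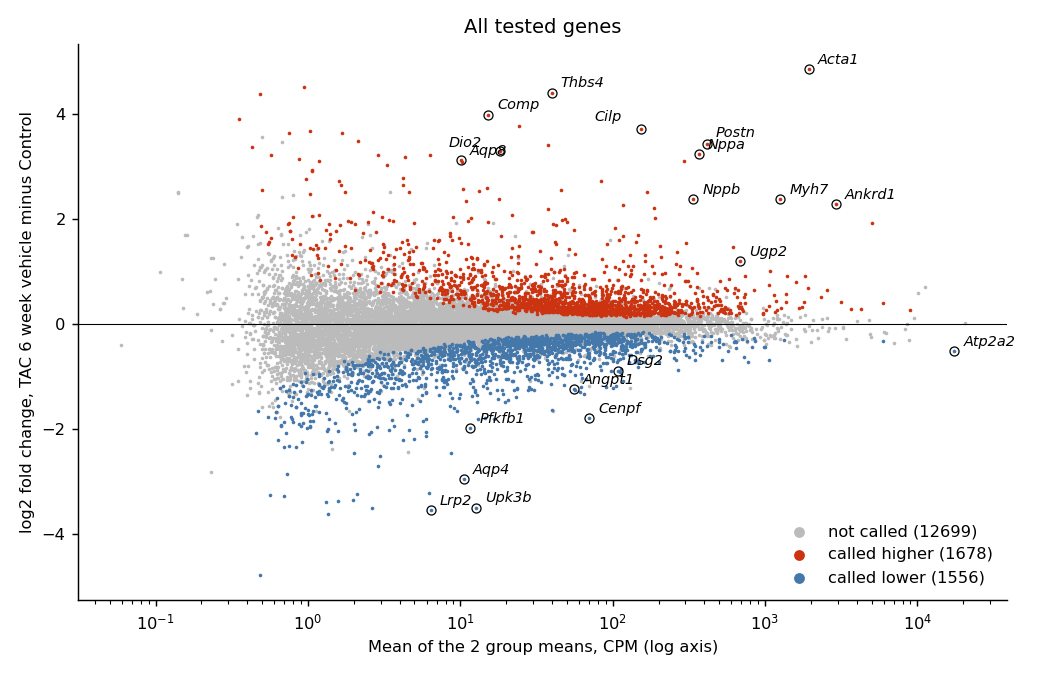
Mean expression (CPM, log axis) against the log2 fold change for each of 15933 tested genes, with 1678 called higher in red, 1556 called lower in blue and the rest in grey. Acta1, at 4.85, and the thrombospondin genes Thbs4 and Comp lie at the top, and Lrp2 and Upk3b, near -3.5, toward the bottom.

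Genes of the wall-stress and fetal program rose. Of its 20 tested members 15 rose and 1 fell, with a median log2 fold change of 1.17, and the counts were the same without TAC 6 week vehicle 1. Acta1 (ENSMUSG00000031972.4, chromosome 8, 123891769 to 123894751, mm10), the skeletal form of actin that the fetal heart also makes, was at 90.7, 151 and 149 CPM in Control and at 2730, 4890 and 3650 CPM in TAC 6 week vehicle. All TAC libraries lay far above all Control libraries, and the change was 4.85 ± 0.46 (adjusted p = 2.81e-05), a ratio of means of 28.9. Nppb (ENSMUSG00000029019.8, chromosome 4, 147985788 to 147987205), the gene of the natriuretic peptide BNP, was at 116, 109 and 103 CPM in Control and 527, 588 and 585 CPM after TAC. Its groups were each tight and did not overlap, with a change of 2.37 ± 0.19 (adjusted p = 2.75e-06). Its neighbour Nppa (chromosome 4, 148000722 to 148002079), which encodes the related hormone ANP, was at 71.7, 45 and 96.1 CPM in Control and at 351, 880 and 762 CPM after TAC (3.23 ± 0.62, adjusted p = 0.00332), lowest of the TAC libraries in vehicle 1.

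The protease that matures these hormones, encoded by Corin, was the list's 1 fall, from 402, 364 and 412 CPM to 276, 279 and 284 CPM (-0.49 ± 0.10, adjusted p = 0.002). Myh7 (chromosome 14, 54970684 to 54994626), which encodes the slow beta myosin of the fetal ventricle, was at 457, 356 and 401 CPM in Control. After TAC vehicle 1 reached 560 CPM, while vehicle 2 and 3 reached 2760 and 3000 CPM, so the group did not overlap with Control but was itself split (2.38 ± 0.52, adjusted p = 0.00653). The adult alpha myosin gene Myh6 was among the uncounted genes, so no ratio of both myosins can be given. Members that transmit or sense stretch moved in all TAC libraries: Ankrd1, a nuclear and sarcomeric ankyrin-repeat protein, rose from 999, 947 and 1030 CPM to 3670, 5590 and 5170 CPM (2.28 ± 0.30, adjusted p = 2.23e-04). Its relative Ankrd23 had the smallest p of the list, with 310, 362 and 306 CPM against 949, 894 and 851 CPM (1.46 ± 0.11, adjusted p = 2.22e-07). Xirp2, an actin-binding protein of the intercalated disc, rose by 1.93 ± 0.24, Rcan1, a feedback inhibitor of calcineurin, by 1.56 ± 0.25, and the intermediate filament gene Des by 0.69 ± 0.08. The other 4 tested members, Npr3, Acta2, Myl4 and Myh7b, did not pass, with changes between -0.22 and 0.18.

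**Figure D2:**
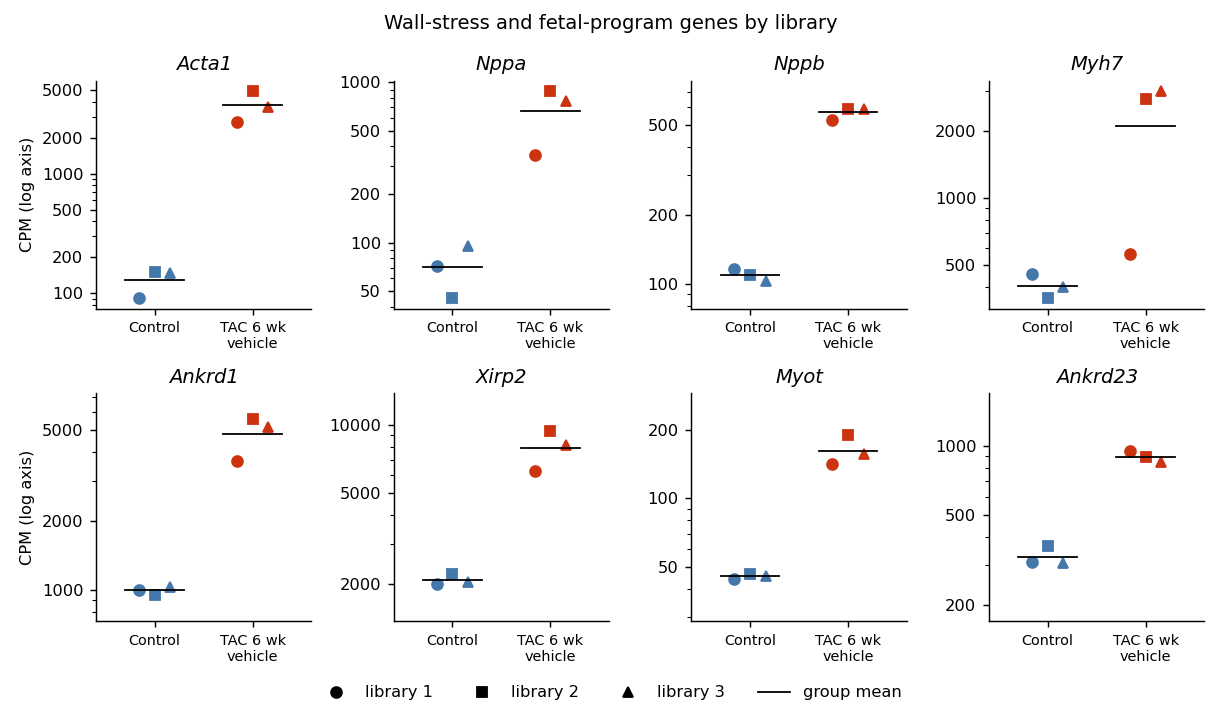
CPM (log axis) of 8 genes in each Control and TAC 6 week vehicle library, with the group mean as a line. For all 8 the TAC libraries lie above the Control libraries, and for Myh7 vehicle 1, at 560 CPM, lies closer to Control than to vehicle 2 and 3.

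Promoters were looked up for Acta1, Nppa, Nppb, Ankrd1 and Myh7. Those of 3 of these genes are shown because short motifs that bind well-known cardiac regulators occur in them: the M-CAT motif (CATTCC), bound by TEAD factors, the GATA site (AGATAA), bound by GATA factors, and the CArG box, bound by serum response factor. Each run covers 250 bases before to 50 bases after the annotated start, from RefSeq on GRCm38.p6, on the gene's strand, with motif matches on either strand in capitals; no match overlaps another. The promoter of Acta1 lies at chr8:123894726-123895025 (minus strand) and holds 1 CArG box and 1 M-CAT motif, that of Nppb at chr4:147985650-147985949 (plus strand) with 1 M-CAT motif and 1 GATA site, and that of Ankrd1 at chr19:36119795-36120094 (minus strand) with 2 M-CAT motifs and 1 GATA site.
Acta1: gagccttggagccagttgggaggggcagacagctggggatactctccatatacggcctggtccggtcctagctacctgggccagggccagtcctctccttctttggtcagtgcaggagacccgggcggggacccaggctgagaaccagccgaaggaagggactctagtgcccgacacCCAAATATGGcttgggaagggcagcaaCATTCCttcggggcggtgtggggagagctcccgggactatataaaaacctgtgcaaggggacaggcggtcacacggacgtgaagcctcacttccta
Nppb: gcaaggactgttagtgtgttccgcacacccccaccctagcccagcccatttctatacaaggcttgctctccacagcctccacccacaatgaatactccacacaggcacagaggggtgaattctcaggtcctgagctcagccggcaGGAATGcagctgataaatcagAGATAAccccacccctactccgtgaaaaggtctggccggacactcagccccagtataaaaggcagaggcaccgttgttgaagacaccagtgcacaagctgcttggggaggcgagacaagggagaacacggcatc
Ankrd1: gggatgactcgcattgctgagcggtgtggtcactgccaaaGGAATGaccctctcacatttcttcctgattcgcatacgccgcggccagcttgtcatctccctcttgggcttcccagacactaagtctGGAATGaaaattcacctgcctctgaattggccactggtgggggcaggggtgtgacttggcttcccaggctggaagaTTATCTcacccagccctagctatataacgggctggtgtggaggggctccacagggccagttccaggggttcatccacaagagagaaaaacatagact
Of 32851 promoter entries of the same length, 14.7% held an M-CAT motif, 11.2% a GATA site and 1.63% a CArG box. Nppa had no match to these motifs in this window, and of the 2 entries of Myh7 1 held an M-CAT motif and the other no match. A match is a description of the letters and no evidence of binding in these hearts.

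Structural genes of the sarcomere and Z-disc rose less. Of 32 tested members 12 rose and 2 fell, with a median of 0.15, the same counts without TAC 6 week vehicle 1. Myot, which encodes the Z-disc protein myotilin, was at 44.2, 46.5 and 45.4 CPM in Control and 141, 189 and 156 CPM after TAC, a clear separation (1.83 ± 0.13, adjusted p = 2.22e-07). Nrap, a scaffold of assembling myofibrils, rose by 0.92 ± 0.09 and Pdlim5, an enigma-family Z-disc protein, by 0.74 ± 0.10, while Smpx, a small muscle protein, rose by 0.39 ± 0.06. The falls were Nebl (-0.26 ± 0.08), which encodes the thin-filament anchor nebulette, and Mylk3 (-0.43 ± 0.13), the cardiac myosin light chain kinase. Nebl lost its call in 4 and Mylk3 in 5 of the 6 leave-outs. Among genes of cytoskeleton, integrins and adhesion 13 of 44 rose and 5 fell. Dsg2, a desmosomal cadherin, fell from 136, 139 and 145 CPM to 76, 75.6 and 75.8 CPM (-0.89 ± 0.14, adjusted p = 6.42e-04), and its partners at the cell junction Jup (-0.25 ± 0.06) and Ctnna3 (-0.50 ± 0.11) fell too. The desmosomal gene Pkp2 rose by 0.18 ± 0.06 but lost its call in 5 leave-outs. The integrin gene Itga9 rose by 0.97 ± 0.09 and the integrin-like Itgbl1 by 1.89 ± 0.31.

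Connective tissue genes rose broadly. In the list of collagens and matrix 26 of 50 tested members rose and 1 fell (median 0.92), and 28 passed, all higher, without TAC 6 week vehicle 1. Cilp, a matrix protein of load-bearing tissue, was at 18.2, 21.4 and 25.5 CPM in Control and at 140, 379 and 339 CPM after TAC (3.72 ± 0.52, adjusted p = 4.31e-04). Postn (chromosome 3, 54361109 to 54391037), secreted by activated fibroblasts, was at 67.1, 73.6 and 71.6 CPM in Control and at 368, 1070 and 846 CPM after TAC (3.43 ± 0.72, adjusted p = 0.00568). In both genes the groups did not overlap and vehicle 1 was the lowest of its group. Thbs4 reached 29, 97.8 and 101 CPM from 3.19 to 3.95 CPM (4.40 ± 0.94), and Comp 9.91, 24.1 and 52 CPM from 1.6 to 1.97 CPM (3.98 ± 0.62), both thrombospondins. Ccn2, a matricellular protein induced by stretch and TGF-beta, was at 63.2, 66.7 and 69.1 CPM in Control and at 119, 413 and 394 CPM after TAC (2.22 ± 0.51, adjusted p = 0.00891).

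Proteoglycans that decorate collagen fibrils rose as well: Bgn by 1.49 ± 0.28, Aspn by 1.52 ± 0.29, Lum by 0.84 ± 0.16 and Dcn by 0.57 ± 0.11. The chains of the main fibrillar collagens were not among the calls. Col1a1 had a log2 fold change of 0.73 ± 0.41 (adjusted p = 0.23), Col1a2 of 0.66 and Col3a1 of 0.68, whereas Col8a1, a short-chain collagen, rose by 2.52 ± 0.52 and Col12a1, which bridges fibrils, by 3.77 ± 0.93. The call of Col12a1 was lost in 2 leave-outs. The list's 1 fall, Thbs2 (-0.42 ± 0.13), lost its call in 4 of 6 leave-outs. Among genes that assemble or degrade matrix 11 of 34 rose and 3 fell, 16 and 2 without TAC 6 week vehicle 1. They included the collagen proteinase enhancer Pcolce2 (0.76 ± 0.13), the prolyl hydroxylase subunit P4ha1 (0.61 ± 0.12), Adamtsl2, which binds fibrillin microfibrils (1.98 ± 0.34), and the protease Mmp3 (1.28 ± 0.24). Timp1, an inhibitor of matrix proteases, was at 0.831, 1.3 and 1.03 CPM against 5.28, 9.51 and 7.2 CPM, but lost its call in 5 leave-outs (2.78 ± 0.86, adjusted p = 0.0375).

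Some markers of fibroblasts rose too, in part the same genes as above. Of 8 markers of resting fibroblasts 3 passed, all higher, among them Dcn and Lum given above, and 5 did not pass. The summed levels of the 8 were 2302 to 2397 CPM in Control and 2591 to 3252 CPM after TAC. Of 8 markers of activated fibroblasts 3 rose, and 1, Lrrc15, fell (-1.13 ± 0.32), a call lost in 4 leave-outs. Their summed levels were 234.7 to 266 CPM in Control and 590, 1327 and 1101 CPM in TAC 6 week vehicle 1 to 3. Most of this rise was that of Postn, at 67.1 to 73.6 CPM in Control and 368, 1070 and 846 CPM after TAC. Pdgfra (0.15) and Tcf21 (0.06), which mark the lineage, and Acta2 (-0.20) did not pass. In whole hearts more cells of a type and more RNA per cell cannot be told apart, nor can fewer cells and less RNA.

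In the TGF-beta and BMP list 9 of 30 tested members rose and 5 fell. Of the ligands, Gdf15, a stress cytokine, was at 0.208, 0.499 and 0.62 CPM in Control and at 1.17, 3.57 and 3.74 CPM after TAC (2.64 ± 0.53), and Tgfb3 rose by 0.79 ± 0.19. Tgfb1 (0.26) and Tgfb2 (0.71) did not pass. Secreted antagonists moved both ways, Fstl3 by 2.52 ± 0.47 and Chrdl1 by -1.44 ± 0.29. The receptor gene Tgfbr1 rose by 0.61 ± 0.14 while the coreceptor gene Tgfbr3 fell by 0.54. The latent TGF-beta binding proteins also parted: Ltbp2 rose by 3.41 ± 0.69 and Ltbp1 fell by 0.52. Smad3, a signal transducer of the pathway, fell by 0.50, with 36.5, 38.6 and 38 CPM against 34.3, 22.7 and 23 CPM.

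Other secreted factors changed in both directions, with 8 of 38 growth factor and cytokine genes higher and 7 lower. Edn3, which encodes endothelin 3, was at 1.97, 2.49 and 1.96 CPM in Control and 17, 22.4 and 15.6 CPM after TAC (3.08 ± 0.25, adjusted p = 6.44e-07), a separation shared by all TAC libraries. Hbegf, a ligand of the EGF receptor, rose by 1.39 ± 0.21 and Vegfa, the main angiogenic factor, by 0.46 ± 0.08. Angpt1, the vessel-stabilising ligand of Tie2, fell from 74.1, 87.9 and 72.1 CPM to 39, 27 and 33 CPM (-1.24 ± 0.21, adjusted p = 9.98e-04), and Fgf16, a growth factor of heart muscle, from 20.9, 17.1 and 22.3 CPM to 11.7, 7.37 and 8.42 CPM. In the Wnt, Notch and retinoic acid list 4 of 29 rose and 7 fell. The secreted Wnt antagonist Frzb rose by 2.02 ± 0.45 and the Dickkopf family member Dkk3, also listed as an atrial marker, by 2.57 ± 0.54, while Axin2, a Wnt target gene, fell by 0.94, and the receptor gene Lgr6 fell by 1.04. The Wnt agonist gene Rspo1 fell by 3.38, from 1.97 to 3 CPM to at most 0.44 CPM.

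In the list of adrenergic, renin-angiotensin and endothelin signalling 11 of 30 tested genes fell and 5 rose. Adrb1, the main beta-adrenergic receptor of heart muscle, was at 14.6, 15.5 and 17.7 CPM in Control and at 11.2, 5.47 and 5.23 CPM after TAC (-1.13 ± 0.21, adjusted p = 0.00135). Adra1b, an alpha-1 receptor, fell from 33.2, 30.1 and 36.4 CPM to 18.2, 11.3 and 12.9 CPM (-1.23 ± 0.20), and Rgs2, which shortens the signal of such receptors, by 1.16. In all 3 genes every TAC library lay below every Control library. The adenylyl cyclase gene Adcy6 fell by 0.52 and the cAMP phosphodiesterase genes Pde3a and Pde4d by 0.50 and 0.60. Of the renin-angiotensin genes Ace, the converting enzyme, rose from 72.4, 71 and 68.1 CPM to 127, 183 and 179 CPM (1.21 ± 0.19), and Agt, its precursor substrate, from 2.39, 3.29 and 2.48 CPM to 4.04, 9.04 and 9.58 CPM (1.47 ± 0.30). The receptor Agtr1a fell by 0.56 but lost its call in 4 leave-outs. Ednrb, an endothelin receptor, rose by 0.66 ± 0.10.

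Genes of calcium handling were lower in 9 and higher in 6 of 29 cases (median -0.20). Atp2a2, which encodes the pump SERCA2 that refills the sarcoplasmic reticulum, was at 20700, 20400 and 20700 CPM in Control and 15100, 13800 and 14400 CPM after TAC. Its groups did not overlap (-0.51 ± 0.14, adjusted p = 0.0138), although the call was lost without TAC 6 week vehicle 2. The T-type calcium channel genes Cacna1g and Cacna1h, of the fetal and pacemaking heart, fell by 0.71 and 0.89, the latter lost in 1 leave-out, and the L-type channel's auxiliary gene Cacnb2 by 0.36. Rises were those of the store buffer Casq2 (0.42 ± 0.07), the calcium sensor gene S100a1 (0.34 ± 0.08) and the junctional protein gene Asph (0.29 ± 0.06). The SERCA inhibitor Pln had a change of -0.36 (adjusted p = 0.0871) and did not pass.

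Potassium channel genes gave the largest share of falls among the 34 functional lists, 12 of 22 with 1 rise and a median of -0.44, and 12 falls and 2 rises without TAC 6 week vehicle 1. Kcnd2 and Kcnip2 encode the pore and an auxiliary subunit of the fast transient outward current, which shapes early repolarisation in the mouse. Kcnd2 was at 82.3, 79.1 and 90.6 CPM in Control and at 45.9, 37 and 40.7 CPM after TAC (-1.03 ± 0.16, adjusted p = 6.53e-04). Kcnip2 fell by 0.69, from 171 to 176 CPM to 89.2 to 116 CPM, but lost its call in 5 leave-outs. The hERG-type channel gene Kcnh2 was at 71.6, 59.6 and 73.3 CPM against 39, 37.7 and 44.3 CPM (-0.75 ± 0.12). Inward rectifiers fell too: Kcnj3 and Kcnj5, which form the channel opened by acetylcholine, by 0.92 and 0.74, and Kcnj2 by 0.73. The 1 rise was Kcnj14 (1.91 ± 0.34), from 0.827 to 0.898 CPM to 2.05, 4.04 and 3.6 CPM. Of 15 genes of sodium channels, pacemaker channels and gap junctions 6 fell and 1 rose. The fall of Fgf13, which modulates sodium channels, was -0.77 ± 0.15. The channel genes Hcn4 (-0.75 ± 0.22) and Hcn2 (-0.81 ± 0.24) and the connexin genes Gja1 (-0.33 ± 0.11) and Gja3 (-0.45 ± 0.14) lost their call in 4, 3, 5 and 6 leave-outs.

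**Figure D3:**
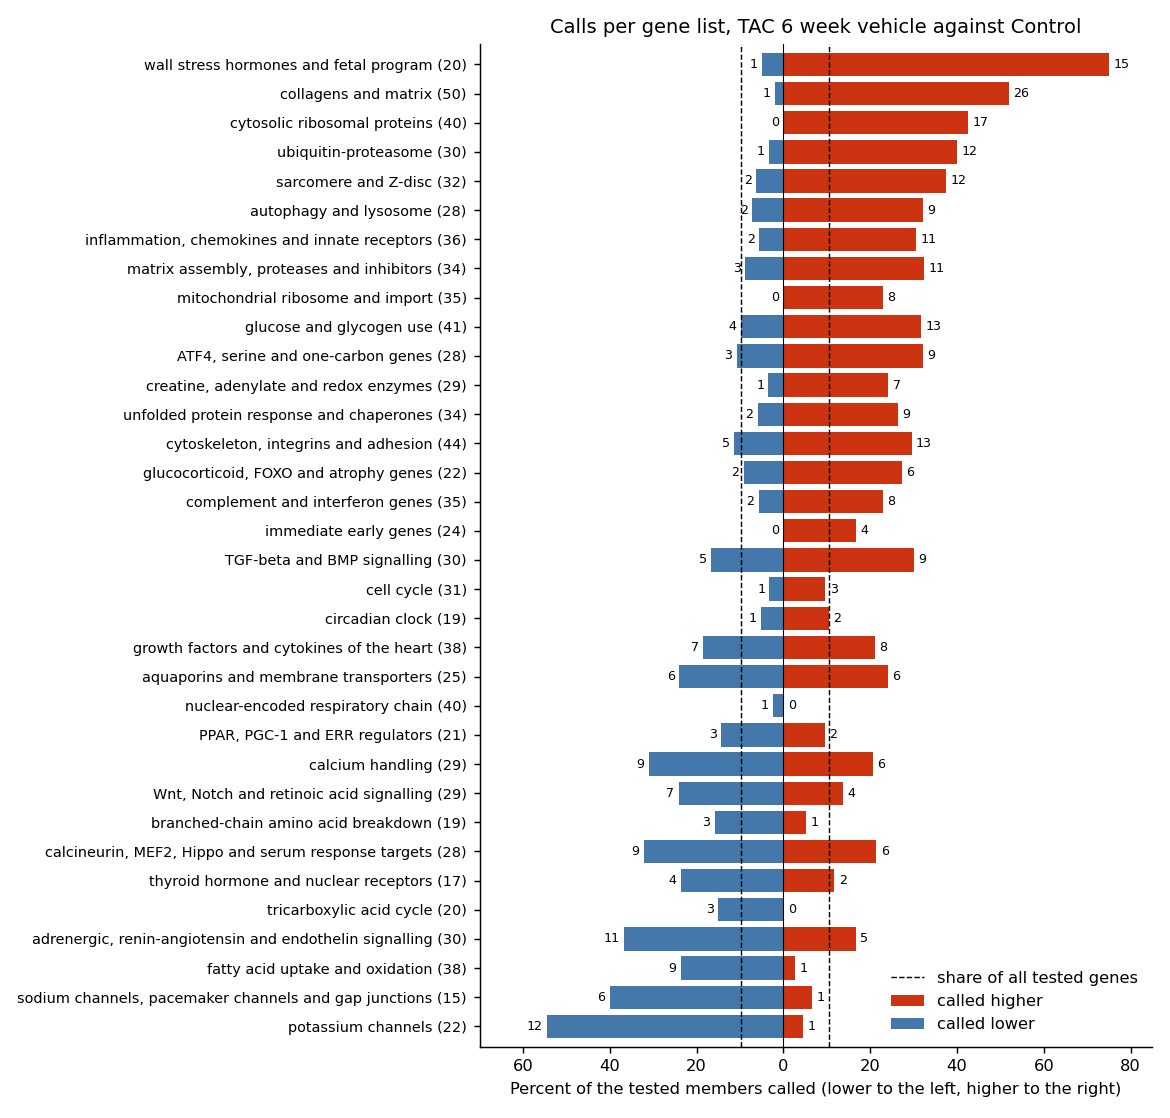
For 34 gene lists, the percentage of tested members called higher (red, right) or lower (blue, left), with the number of tested members in brackets and the numbers called beside the bars. Dashed lines mark the shares over all tested genes, 10.5% and 9.77%; the wall-stress list (15 of 20 higher) and the potassium channels (12 of 22 lower) form the ends.

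Genes of fatty acid use were lower, mostly by small amounts. Of 38 tested members 9 fell and 1 rose (median -0.26), and in 26 of them all TAC libraries lay below all Control libraries, against 19.4% of all genes. Cpt1a, a liver-type form of the enzyme that admits fatty acids to mitochondria, was at 108, 114 and 117 CPM in Control and at 69.4, 77.8 and 70.4 CPM after TAC (-0.64 ± 0.08, adjusted p = 2.89e-05). The muscle form Cpt1b had a change of -0.10 and did not pass. Slc27a1, a fatty acid transporter, fell from 147, 130 and 161 CPM to 84.8, 68.4 and 88.2 CPM (-0.86 ± 0.18). The list's 1 rise was Fabp4 (0.43 ± 0.10), which capillary endothelium also expresses. Ucp3, a mitochondrial carrier induced by fatty acids, and the thioesterase gene Acot1 fell by 1.25 and 2.13, each losing its call in 3 leave-outs. The calls of Mlycd, Acaa2, Etfb and Cpt2 were each lost in 5.

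Ketone use went the other way at 1 step. Bdh1, the mitochondrial enzyme that oxidises the ketone body beta-hydroxybutyrate, was at 59.7, 98.1 and 66.1 CPM in Control and at 295, 307 and 306 CPM after TAC (2.02 ± 0.15, adjusted p = 7.97e-07). Glucose and glycogen genes rose in 13 and fell in 4 of 41 cases. The smallest p belonged to Ugp2, which makes the UDP-glucose from which glycogen is built, at 399, 449 and 408 CPM in Control and 865, 1020 and 993 CPM after TAC (1.19 ± 0.08, adjusted p = 4.97e-08). Ppp1r3c, a glycogen-targeting subunit of protein phosphatase 1, rose by 1.10 ± 0.10 and the branching enzyme gene Gbe1 by 0.41 ± 0.07. Glycolytic enzymes rose by less, for example Pgam2 by 0.43 ± 0.07 and Gapdh by 0.29 ± 0.06. Pfkfb1, which controls the level of a glycolytic activator, fell from 17.9, 21.1 and 16.9 CPM to 7.56, 2.22 and 4.28 CPM (-1.98 ± 0.38).

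Fewer genes of downstream oxidation passed the test. Of 20 genes of the tricarboxylic acid cycle 3 passed, all lower: Pcx, which replenishes oxaloacetate, by 0.52, Idh3g by 0.33 and Cs by 0.31, the last pair losing their call in 5 leave-outs. Of 40 nuclear-encoded respiratory chain genes 1 passed, Cox8b (-0.42 ± 0.13, lost in 5 leave-outs), while in 17 of them all TAC libraries lay below all Control libraries, against 19.4% of all genes. Branched-chain amino acid breakdown gave 3 falls and 1 rise among 19 genes, with Bcat2, its first enzyme, at -0.38 ± 0.08. Of the PPAR, PGC-1 and ERR regulators 2 of 21 rose and 3 fell. Rxra, the partner receptor of the PPARs, fell from 80.3, 77.1 and 88.9 CPM to 52.8, 57.8 and 57.6 CPM (-0.55 ± 0.10). Ppargc1a, the coactivator PGC-1 alpha, was at 164, 165 and 156 CPM in Control and at 135, 484 and 459 CPM after TAC, so that vehicle 1 lay below Control and the other two above it; its call (1.15 ± 0.34, adjusted p = 0.0313) was lost in 5 leave-outs. Ppargc1b fell by 0.46 and lost its call in 3 leave-outs. Pdk4, which blocks pyruvate oxidation, did not pass (-0.41).

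**Figure D4:**
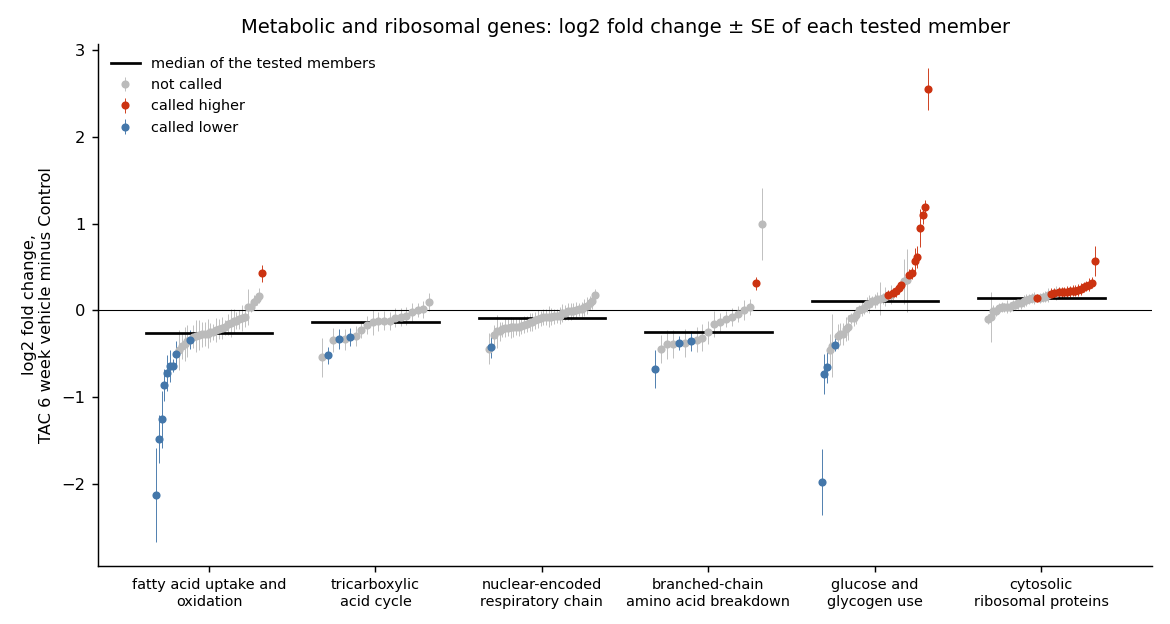
Log2 fold change ± SE of each tested member of 6 lists, ordered within each list, with calls in red and blue and the list's median as a line. The medians are -0.26 for fatty acid use, -0.13 for the tricarboxylic acid cycle, -0.09 for the respiratory chain, -0.25 for branched-chain amino acids, 0.11 for glucose use and 0.15 for ribosomal proteins.

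Genes for making and removing protein rose together by small amounts. Of 40 cytosolic ribosomal protein genes 17 passed, all higher, with a median of 0.15, for example Rplp1 (0.32 ± 0.07), Rpl22 (0.28 ± 0.06) and Rpl23 (0.27 ± 0.06). In 27 of the 40 all TAC libraries lay above all Control libraries, against 19.6% of all genes. Of 35 genes of the mitochondrial ribosome and import 8 passed, all higher, among them the import receptors Tomm22 (0.33 ± 0.07) and Tomm70a (0.27 ± 0.06). Among 30 genes of the ubiquitin-proteasome system 12 rose and 1 fell. The subunit genes Psmd14, Psmb1 and Psmb10 rose by 0.40 ± 0.06, 0.28 ± 0.05 and 0.48 ± 0.09, and Asb15, of a muscle ubiquitin ligase, fell by 0.83, a call lost in 2 leave-outs. Short transcripts were more often higher in general: among the 3411 protein-coding genes with the shortest transcripts 443 rose and 165 fell, and among the 3411 with the longest 375 rose and 553 fell. Highly expressed genes were also more often higher, with 778 rises and 366 falls among the 3407 protein-coding genes of highest expression. The parts of transcript length and of expression level in these rises were not tested.

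In the list of the unfolded protein response and chaperones 9 of 34 rose and 2 fell. Hspb7 was at 1210, 1110 and 1160 CPM in Control and 1820, 2180 and 2070 CPM after TAC (0.80 ± 0.08, adjusted p = 6.64e-06), and the other small heat shock genes Hspb6, Hspb1 and Hspb8, all expressed in muscle, rose by 0.83 ± 0.09, 0.68 ± 0.11 and 0.40 ± 0.07. The list's falls were chaperones of the endoplasmic reticulum, Hyou1 (-0.41 ± 0.06) and Hspa5 (-0.31 ± 0.08), the latter lost in 2 leave-outs. Of the ATF4, serine and one-carbon genes 9 of 28 rose and 3 fell, with Atf4 itself at 0.58 ± 0.09 and the stress protein gene Nupr1 at 1.57 ± 0.28, while Aldh1l2, a mitochondrial folate enzyme, fell by 1.26. Autophagy and lysosome genes rose in 9 and fell in 2 of 28 cases, among them Lamp1 (0.35 ± 0.06), the mitophagy receptor gene Bnip3 (0.54 ± 0.10) and the cathepsin gene Ctsd (0.31 ± 0.07). Among creatine, adenylate and redox enzymes 7 of 29 rose and 1 fell, with the glutathione peroxidase genes Gpx4 (0.34 ± 0.07), Gpx3 (0.72 ± 0.17) and Gpx1 (0.60 ± 0.15, lost without TAC 6 week vehicle 2) higher.

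Of 36 genes of inflammation, chemokines and innate receptors 11 rose and 2 fell. Ptgds, which makes prostaglandin D2, was at 155, 153 and 155 CPM in Control and 463, 400 and 483 CPM after TAC (1.54 ± 0.10, adjusted p = 4.97e-08). Tlr4, the endotoxin receptor, rose from 61.5, 63.5 and 72 CPM to 107, 159 and 154 CPM (1.09 ± 0.13), and its coreceptor gene Cd14 by 1.01 ± 0.22. The chemokine genes Ccl11 (-1.48 ± 0.39) and Cxcl9 (-1.10 ± 0.30) fell, both at low levels, and each lost its call in 3 leave-outs. In the complement and interferon list 8 of 35 rose and 2 fell. The classical pathway genes C1qa and C4b rose by 0.77 ± 0.17 and 1.29 ± 0.21, as did the regulator Serping1 (0.50 ± 0.09). The convertase component C2 fell from 7.37, 7.38 and 9.82 CPM to 1.91, 1.74 and 1.70 CPM (-2.19 ± 0.22). The other fall was C3, from 282, 284 and 327 CPM to 226, 195 and 242 CPM (-0.43 ± 0.12), a call lost in 2 leave-outs. Of 12 macrophage markers 6 passed, all higher, among them C1qa itself and Mrc1 (0.59 ± 0.11). Summed levels of the 12 were 407.8 to 434.9 CPM in Control and 590.2 to 672.5 CPM after TAC. The part of macrophages in the rises of inflammation and complement genes was not tested. The 5 tested markers of neutrophils and monocytes summed to 17.55 to 21.17 CPM in Control and 17.83 to 28.03 CPM after TAC.

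Among the other cell type markers, those of mesothelium and epicardium, the covering of the heart, fell in 7 of 11 cases, with none of the rest passing (median -1.97). Upk3b was at 20.6, 20.6 and 28.7 CPM in Control and at 3.96, 1.59 and 0.679 CPM after TAC (-3.49 ± 0.56, adjusted p = 9.21e-04). Upk1b, Lrrn4, Msln, Krt19, Krt8 and the matrix gene Efemp1 were the other falls, between -1.79 and -3.51, of which Krt8 lost its call in 3 leave-outs, while Wt1 (-0.08), Tbx18 (-0.02), Aldh1a2 (0.45) and Krt7 (-0.86) did not pass. Summed levels of the list were 103.4 to 122.5 CPM in Control and 37.26 to 53.32 CPM after TAC. Cardiomyocyte markers, which check the labelled tissue, summed to 56280 to 57610 CPM in Control and 52080 to 57320 CPM after TAC, with 1 of 10 higher and 1 lower. Markers of endothelium changed in 2 of 12 cases, 1 each way. Without TAC 6 week vehicle 1 it was 1 rise and 5 falls. Markers of conduction tissue fell in 3 of 9 cases and those of mast cells in 2 of 5, or 1 without TAC 6 week vehicle 1. The conduction falls of Cntn2 (mean 3.62 CPM in Control, 1.67 CPM after TAC) and Hcn4 (4.97 and 2.95 CPM) were each lost in 4 leave-outs. That of Irx3 was lost in 0, and the mast cell fall of Cma1 (2.22 and 1.17 CPM) in 4. Of 7 tested markers of Schwann cells and neurons 3 fell and 1, Prnp, rose (median -0.84), and 5 fell without TAC 6 week vehicle 1. The falls of Dbh and Kcna1 were lost in 4 and 3 leave-outs, and that of Mbp in 0. Red blood cell genes summed to 385.8 to 679.3 CPM in Control and 385 to 607.9 CPM after TAC. Of 6 tested markers of the atrium 1 rose, Dkk3 given above, and 1 fell, or 2 fell without TAC 6 week vehicle 1. The fall was the atrial myosin gene Myl7, at 0.931 to 1.8 CPM in Control and 0.34 to 0.396 CPM after TAC. Myl7 was low in all 6 libraries, with a change of -1.90 ± 0.49 (adjusted p = 0.0114), a call lost in 1 leave-out. Whether the amount of atrial tissue differed between the groups was not tested.

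In the list of calcineurin, MEF2, Hippo and serum response targets 9 of 28 fell and 6 rose. Tbx5, a T-box factor of the developing and adult heart, was at 27, 23.6 and 29.5 CPM in Control and at 13.4, 13.6 and 11.8 CPM after TAC (-1.04 ± 0.20), and Gata6, Mef2d and the deacetylase gene Hdac5 fell by 0.57, 0.50 and 0.54. Ccn1, a serum response and Hippo target, rose by 0.94 ± 0.13. In the list of thyroid hormone and nuclear receptors 2 of 17 rose, 4 fell and 11 did not pass (median -0.09). Dio2, which activates the hormone, rose from 2.6, 3.99 and 3.41 CPM to 21.1, 40.8 and 36.8 CPM (3.30 ± 0.66, adjusted p = 0.00402). The receptor genes Thra and Thrb fell by 0.63 and 0.68, and Nr3c2, the mineralocorticoid receptor, by 0.72. Of 31 cell cycle genes 3 rose, the D-type cyclins Ccnd1 (0.70 ± 0.16) and Ccnd2 (0.60 ± 0.10) and the inhibitor Cdkn1a (1.24 ± 0.30, lost without Control 1). The 1 fall was the mitotic gene Cenpf, at 118, 93.1 and 117 CPM against 32.4, 31.9 and 30.2 CPM (-1.79 ± 0.19). Proliferation genes such as Mki67 (0.66) and Top2a (0.77) did not pass.

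Water and solute channels included several of the largest changes. Aqp8 was at 2.49, 1.8 and 1.96 CPM in Control and 14.4, 22.9 and 17 CPM after TAC (3.11 ± 0.20, adjusted p = 4.97e-08), and Aqp4 went the other way, from 17.9, 17.1 and 21 CPM to 3.23, 1.43 and 2.51 CPM (-2.95 ± 0.22, adjusted p = 2.22e-07). Both encode water channels, and neither gene's groups overlapped. Slc40a1, the cellular iron exporter ferroportin, fell from 45.7, 52.7 and 53.1 CPM to 28.7, 23 and 26 CPM, and Lrp2, an endocytic receptor of epithelia, from 9.97, 12.1 and 13.4 CPM to 1.54, 0.872 and 0.611 CPM (-3.55 ± 0.49). Further large rises were Tbx15 (3.17 ± 0.35), a T-box factor, the prostaglandin synthase gene Ptgs2 (3.21 ± 0.74) and Atp6v0a4 (3.02 ± 0.60), of a proton pump. Further falls were Zdbf2 (-2.71 ± 0.34), Retnla (-2.51 ± 0.41), a secreted product of alternatively activated macrophages, Stum (-2.21 ± 0.24), the anion exchanger gene Slc26a3 (-2.02 ± 0.26), the zinc transporter gene Slc39a8 (-2.02 ± 0.26) and the channel subunit gene Cngb3 (-2.04 ± 0.33). Among falls of smallest p were Nav2 (-1.21 ± 0.11), the adenosine receptor gene Adora1 (-1.07 ± 0.11), the proteoglycan gene Gpc3 (-1.65 ± 0.17), the scaffold gene Magi3 (-0.81 ± 0.09) and the exchange factor gene Arhgef17 (-0.66 ± 0.07).

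Long noncoding genes were called lower more often than higher: of 483 tested lincRNA genes 15 rose and 54 fell, and of 712 antisense genes 16 rose and 74 fell, against 1625 rises and 1309 falls among 13643 protein-coding genes. Noncoding genes are mostly low, and among the 3412 protein-coding genes with the lowest expression 142 rose and 263 fell. Gm5532 was at 94.2, 97 and 95.2 CPM in Control and 145, 161 and 160 CPM after TAC (0.70 ± 0.08), and Gm13943 rose by 1.59 ± 0.23. Gm26869 fell from 93.7, 87.6 and 95.6 CPM to 50.1, 62.4 and 62.7 CPM (-0.66 ± 0.09), and Gm13479 by 1.19.

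Several clock genes differed widely between the TAC libraries. Of 19 tested clock genes 2 rose and 1 fell. Nfil3, a repressor of the clock's output, was at 7.37, 7.68 and 7.55 CPM in Control and 17.8, 17.2 and 19.3 CPM after TAC (1.26 ± 0.12, adjusted p = 4.45e-06), and Cry1, a core repressor, rose from 7.89, 8.68 and 8.89 CPM to 14.2, 14.7 and 17.9 CPM (0.88 ± 0.13). Nr1d1, which encodes REV-ERB alpha and represses the first pair of genes, fell from 65.1, 55.7 and 62.3 CPM to 24, 35.8 and 34.4 CPM (-0.96 ± 0.18, adjusted p = 0.00235). These 3 changes were shared by all TAC libraries. The promoter of Cry1 (GRCm38.p6, chr10:85185005-85185304, minus strand, from RefSeq) is shown because it holds the E-box CACGTG, in capitals, the element bound by the clock's activators; 7.15% of the 32851 promoter entries held one. Those looked up for Arntl, Dbp, Nfil3 and Nr1d1 held none in this window.
Cry1: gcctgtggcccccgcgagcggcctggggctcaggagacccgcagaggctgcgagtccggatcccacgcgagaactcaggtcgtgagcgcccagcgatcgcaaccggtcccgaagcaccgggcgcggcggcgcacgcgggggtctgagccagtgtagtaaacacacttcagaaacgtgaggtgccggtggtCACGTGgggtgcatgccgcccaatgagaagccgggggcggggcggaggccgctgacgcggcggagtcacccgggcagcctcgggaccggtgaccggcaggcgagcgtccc

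Other clock genes split the TAC group. Arntl, which encodes the activator BMAL1, was at 8.52, 16.3 and 8.58 CPM in Control and at 42.7, 3.57 and 2.72 CPM in TAC 6 week vehicle 1, 2 and 3. Per2, a repressor whose rhythm runs opposite to that of Arntl, was at 29, 18.1 and 28.4 CPM in Control and at 2.27, 58.8 and 67.1 CPM. Vehicle 1 thus lay beyond the Control libraries on one side and vehicle 2 and 3 on the other, in both genes. Neither difference in group means passed the test (Arntl 0.55, adjusted p = 0.66; Per2 0.77, adjusted p = 0.448). Without vehicle 1 the change of Arntl was -1.83 and that of Per2 was 1.33. Vehicle 1 is the library that stood apart in these genes, so a test without it is no independent support. In the TAC 6 week SR9009 libraries Arntl was at 27.4 to 40.9 CPM and Per2 at 7.65 to 9.54 CPM. Over all genes of at least 20 CPM, 115 of 7237 had a range over 1 on the log2 scale within TAC 6 week vehicle, against 18 within Control, and in 111 of the 115 vehicle 1 was the farthest from the group's median.

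Vehicle 1 also differed from vehicle 2 and 3 in stress-responsive genes. Of 24 immediate early genes 4 passed, all higher, and without TAC 6 week vehicle 1 it was 12, all higher. Atf3, a stress-induced transcription factor, was at 15.3, 10.5 and 15.6 CPM in Control and at 10.9, 57.5 and 71 CPM after TAC, a call lost in 5 leave-outs. Nr4a3, an early-response nuclear receptor that did not pass, was at 13.8, 5.19 and 13.5 CPM and at 3.74, 45 and 55.1 CPM. Vehicle 1 lay within the range of Control for Atf3 and below it for Nr4a3. Glucocorticoid, FOXO and atrophy genes rose in 6 and fell in 2 of 22 cases, and in 12 and 1 without that library. Fkbp5, a target of the glucocorticoid receptor, was at 13.7, 17.9 and 19.5 CPM in Control and at 19.4, 78.4 and 93.6 CPM after TAC (1.91 ± 0.43, adjusted p = 0.00784). Irs2 and Otud1 were, with Per2, Nr4a3 and Atf3, among the genes of widest range in the TAC group. In Irs2 vehicle 1 was at 7.63 CPM against 42.3 and 51.7 CPM in vehicle 2 and 3, and in Otud1 at 17.3 against 103 and 96.8 CPM. Harvest time, handling and dosing could not be told apart as sources of this split.

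**Figure D5:**
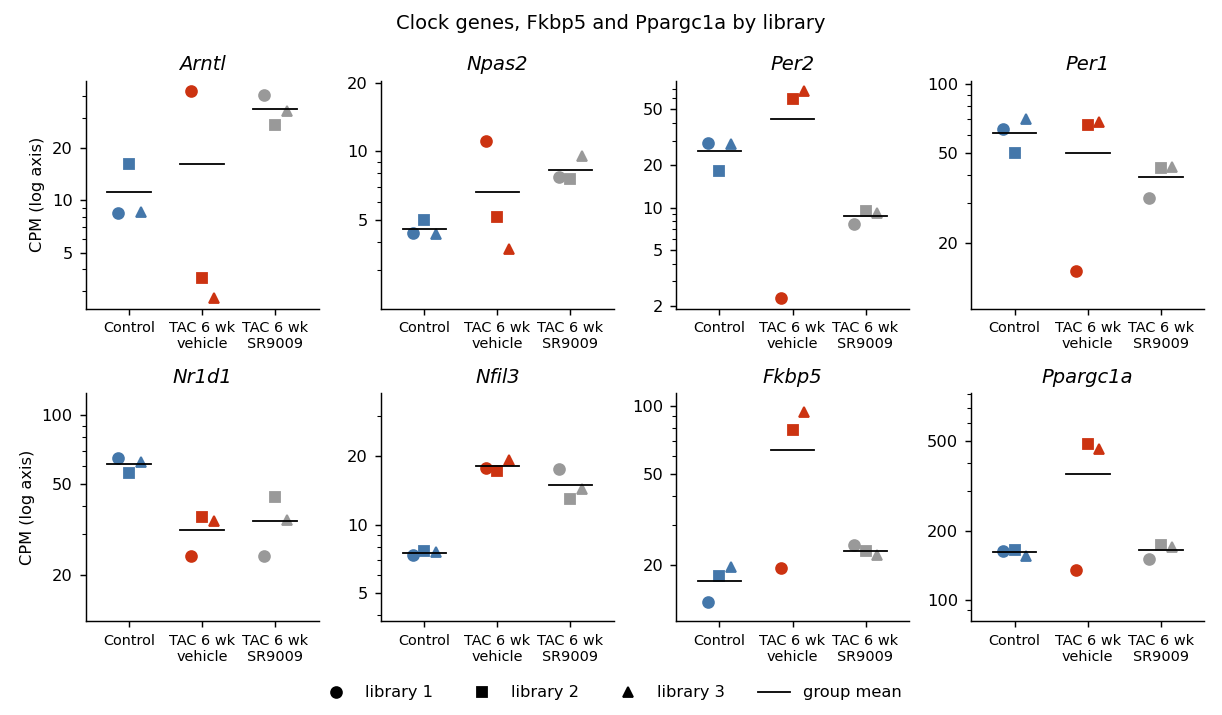
CPM (log axis) of 8 genes in each library of Control, TAC 6 week vehicle and TAC 6 week SR9009, with the group mean as a line. For Arntl, Npas2, Per2, Per1, Fkbp5 and Ppargc1a vehicle 1 (circle) lies far from vehicle 2 and 3, and for Nfil3 and Nr1d1 all vehicle libraries lie on one side of Control.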

How the data were processed

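Total RNA of whole hearts was sequenced from libraries of the TruSeq kit, per the labels' protocols. Each deposited file held the authors' expected counts per gene, which are raw fragments that need not be whole, per the file headers. Per the submitters' processing notes, reads were placed on mm10. Which aligner, counter release and gene models were used is not given in the sources used here, nor is a strand setting, so overlapping and antisense genes, and near-identical copies, cannot be told apart. The counts were rounded to whole numbers. Genes the authors' tool marked HIDATA in any of the 6 libraries (74, including Myh6 and Ttn) were dropped, and low genes removed with filterByExpr. edgeR 4.0.16 in R 4.3.3, with TMM scaling and the robust quasi-likelihood test, was fitted to all 17 libraries with 1 mean per group, since these share 1 estimate of the spread. The SE is the absolute log2 fold change divided by the square root of F. The fit was tested on simulated data. Names came from GENCODE vM21, which matched 40252 of 41126 IDs. Promoters were from the RefSeq table, which matched 19 of 23 genes looked up. The 6 libraries held 9.678 to 15.81 M (mega) fragments.

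The members and gene lists were chosen with earlier results of these data known. Named genes were the 15 largest rises and falls among called protein-coding genes of at least 5 CPM whose groups did not overlap, the 10 of smallest p each way, the 4 of smallest p in each list and the members that spell out counts of 5 or fewer, 25 fixed genes, 3 lincRNAs each way, and the 6 genes of at least 20 CPM that varied most within TAC 6 week vehicle. Other list members, such as Xirp2, Adrb1 and Pkp2, were named after their values were seen. Some genes that the rule names are not reported here. Alternatives were other scalings and filters, DESeq2 1.42.0, a replicate block, library total as a covariate, the 6 libraries alone, and leaving out libraries, of which leaving out Control 2 and TAC 6 week vehicle 1 together was added after the data were seen. Replicate numbers did not pair the samples: the deviations of same-numbered libraries correlated at 0.046, -0.064 and 0.154.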

Additional observations from a re-analysis of the deposited data

Results flagged for a closer look

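Of the genes called at both times against the same Control libraries, 4 were called in opposite directions in TAC 1 week vehicle and TAC 6 week vehicle, and the difference between the times passed edgeR's quasi-likelihood test. Both comparisons share the Control libraries, and the 1 week calls lay close to the threshold, with adjusted p from 0.0329 to 0.0497. Apln, which encodes the peptide apelin, was higher at 1 week (0.57) and lower at 6 weeks (-0.61), a difference of -1.18 ± 0.18 (adjusted p = 0.00123). Plxnd1, a semaphorin receptor gene, was at 0.31 and -0.32, a difference of -0.63 ± 0.09 (adjusted p = 0.000659). At 6 weeks it was at 142, 109 and 103 CPM in vehicle 1 to 3, against 142 to 153 CPM in Control, so vehicle 1 equalled the lowest Control library. 2310002L09Rik was lower at 1 week (-0.31) and higher at 6 weeks (0.69), a difference of 1.00 ± 0.10 (adjusted p = 1.98e-05), and Smim10l1 was at -0.17 and 0.18, a difference of 0.35 ± 0.05 (adjusted p = 0.000891).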

How the results depend on the processing

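With library total as a covariate in the fit of all 17 libraries, 143 genes were called higher and 85 lower, and 3230 of the 3234 calls kept their sign. For 232 of the genes named the outcome was compared, and these include genes that had no call to lose. Of them 147 lost their call, 81 stayed called or stayed uncalled, and 4 changed sign. Leaving out 1 library at a time gave 981 to 2090 genes higher and 882 to 1929 lower, the largest numbers without TAC 6 week vehicle 1 and the smallest without TAC 6 week vehicle 2. The other settings stayed within 1.5 times the counts, from 1425 (upper quartile scaling) to 1823 (DESeq2) higher and from 1105 (no filter on low counts) to 1799 (upper quartile scaling) lower, with 1704 and 1520 in the 6 libraries alone and 1725 and 1459 without both Control 2 and TAC 6 week vehicle 1. Upper quartile scaling moved the balance of higher to lower calls to 1425 against 1799. The replicate block, over numbers that did not pair the samples, gave 1616 and 1472. No called gene was called in the opposite direction under any of these settings. Without TAC 6 week vehicle 1, Arntl turned from 0.55 to -1.83, Npas2 from 0.54 to -0.05 and Per1 from -0.30 to 0.13. In that setting Tbx18 turned from -0.02 to 0.07, Tcf21 from 0.06 to -0.20 and Wt1 from -0.08 to 0.08. Without Control 2 as well the values were -1.44 for Arntl, 0.01 for Per1, 0.15 for Tbx18, -0.08 for Tcf21 and 0.14 for Wt1. Under the replicate block Arntl was at -0.15. With library total as a covariate Aldh1a2 was at -0.19, Cpt1b at 0.01, Kdm5d at 0.03 and Pdgfra at 0.00. Kdm5d was at 0.11 without Control 1 and 0.06 without Control 3, Tcf21 at -0.03 without Control 1, and Tbx18 at 0.05 without Control 2 and 0.00 with no filter. Except for Arntl without TAC 6 week vehicle 1, with or without Control 2, none of these reversed values passed the test, and the causes were not tested. That library stood apart in Arntl, so the test of Arntl without it is no independent support. Over all leave-outs of 1 library the ranges of these genes were -1.83 to 1.06 for Arntl, -0.05 to 0.83 for Npas2, -0.60 to 0.13 for Per1, -0.13 to 0.07 for Tbx18, -0.20 to 0.21 for Tcf21, -0.26 to 0.08 for Wt1 and -0.24 to 0.11 for Kdm5d. With 3 libraries a group, changes of genes at a few CPM are the least precise.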
